A study of Homo sapiens with 4 samples.

Results

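Heme synthesis enzymes are described here across cells sorted by a GATA2 reporter, as the 8 gene rows whose symbol is ALAS1, ALAS2, ALAD, UROS, UROD, CPOX, PPOX or FECH, out of 28285 gene rows in each of 4 expression tables. All 8 were found once in every table, and all 8 passed the filter on low values (at least 1 TPM in at least 2 libraries). The cells were differentiated from H1, a long-established line of human embryonic stem cells in which enhanced green fluorescent protein (eGFP) had been placed into the GATA2 locus. GATA2 is a zinc-finger transcription factor of endothelium and blood progenitors. The GFP-positive group held eGFP+CD34+CD31+CD43- cells, labelled hemogenic endothelium, meaning endothelium that gives rise to blood cells. The GFP-negative group held eGFP-CD34+CD31+CD43- cells, labelled endothelial cells in the cell type field but carrying the initials HE in their titles. CD34 and CD31 are surface proteins of endothelium and early blood cells, and CD43 is a surface protein of committed blood cells. Every library carries the GATA2/eGFP knockin and has Cre in its title, so neither distinguishes the groups; the labels do not say what Cre was used for, give no day of differentiation and do not say how many clones or cultures were used. Each group had 2 libraries, so an SD is over n = 2, and no p-value covers more than the spread of these 4 libraries, which may be technical.

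Heme is an iron-containing porphyrin that hemoglobin, cytochromes and many enzymes carry. Its synthesis begins and ends in the mitochondrion, with a middle stretch in the cytosol, and the condensation of glycine with succinyl-CoA by aminolevulinate synthase (ALAS) is the step that sets the rate. ALAS1 is the form found in all cells, and ALAS2 is the erythroid form, whose gene is a target of GATA1 in red cell precursors. ALAD joins pairs of aminolevulinate into porphobilinogen, UROS closes the porphyrin ring, UROD and CPOX trim its side chains, PPOX oxidises it and FECH inserts iron.

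The promoters of 5 enzymes are shown because their genes carry the differences and the contrasts described below: ALAS2 and its paralogue ALAS1, then CPOX and UROD, which were higher in both GFP-positive libraries, and ALAD, which was lower in both. RefSeq (GRCh38.p14) held a promoter for 7 of the 8 genes. Each line gives the 250 bases before an annotated start, 5′ to 3′ on the gene's own strand, and other transcripts of the gene may start within it. The windows are chrX:55030978-55031227 on the minus strand for ALAS2, chr3:52197833-52198082 on the plus strand for ALAS1, chr3:98593612-98593861 on the minus strand for CPOX, chr1:45012004-45012253 on the plus strand for UROD and chr9:113401285-113401534 on the minus strand for ALAD. Capitals mark matches on either strand to GATA letters (AGATAA, where the first letter may also be T and the last may also be G) and to TGAGTCA, the core letters shared by NF-E2 and AP-1 elements. These motifs were chosen after the sequences had been seen.
ALAS2: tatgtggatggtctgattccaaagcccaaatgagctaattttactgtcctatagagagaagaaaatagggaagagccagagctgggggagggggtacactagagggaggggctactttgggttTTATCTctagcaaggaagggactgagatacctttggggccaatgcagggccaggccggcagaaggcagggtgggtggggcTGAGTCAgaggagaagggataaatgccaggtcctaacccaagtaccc
ALAS1: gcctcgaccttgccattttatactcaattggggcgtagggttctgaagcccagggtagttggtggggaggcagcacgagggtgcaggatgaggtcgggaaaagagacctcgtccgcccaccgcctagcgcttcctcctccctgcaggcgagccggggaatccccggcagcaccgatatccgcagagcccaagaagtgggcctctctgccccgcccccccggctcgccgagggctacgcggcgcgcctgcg
CPOX: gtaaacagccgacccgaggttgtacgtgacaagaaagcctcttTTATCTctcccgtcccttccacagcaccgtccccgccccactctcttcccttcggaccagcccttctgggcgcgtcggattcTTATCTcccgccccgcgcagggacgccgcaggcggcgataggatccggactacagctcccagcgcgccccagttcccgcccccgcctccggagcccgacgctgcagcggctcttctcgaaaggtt
UROD: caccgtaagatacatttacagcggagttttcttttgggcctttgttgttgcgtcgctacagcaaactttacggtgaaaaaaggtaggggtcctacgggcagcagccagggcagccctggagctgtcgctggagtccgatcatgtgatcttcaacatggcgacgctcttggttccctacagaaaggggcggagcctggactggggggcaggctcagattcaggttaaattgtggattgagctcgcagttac
ALAD: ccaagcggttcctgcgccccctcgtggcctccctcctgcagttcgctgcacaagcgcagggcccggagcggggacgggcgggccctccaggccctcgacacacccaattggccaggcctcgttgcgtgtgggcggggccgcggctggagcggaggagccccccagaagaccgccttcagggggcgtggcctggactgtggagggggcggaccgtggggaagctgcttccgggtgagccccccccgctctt

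The ALAS2 window held a GATA match that begins 127 bases before the start and a TGAGTCA match that begins 47 bases before it. The CPOX window held GATA matches that begin 207 and 125 bases before the start. No GATA or TGAGTCA letters were in the ALAS1, UROD or ALAD windows shown, nor in that of FECH. ALAD and PPOX each have another annotated start, and the window before it held a GATA match 68 bases before the start for ALAD and 63 bases before it for PPOX. Of 35116 promoter windows of the same length, 22.3% held a GATA match and 4.2% held TGAGTCA. A match is a description of letters and says nothing of binding in these cells. The ALAS1 window was 67.2% G or C and the ALAD window 74.0%, against 52.8% for ALAS2, 53.6% for UROD and a median of 58.0% over all windows.

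Among the enzymes, the mean TPM of UROD in GFP-positive cells exceeded that in GFP-negative cells by 1.93-fold and that of CPOX by 1.60-fold, while ALAD was 2.93-fold lower. FECH and PPOX had nearly equal means in the groups, and ALAS2 had overlapping libraries, with most of its level in a single GFP-positive library. None of the 8 passed the test over all genes: limma on log2(TPM + 1) called 0 higher and 0 lower at a Benjamini-Hochberg adjusted p of 0.05, where 0.447% of 15425 tested genes were called (0.123% higher and 0.324% lower). At an unadjusted p under 0.05, limma gave 3 of the 8, UROD and CPOX higher and ALAD lower, against 14.1% of all genes tested (6.69% higher and 7.38% lower). TPM, the unit of level used here, divides a gene's reads by its transcript length and scales each library to a fixed total, so levels of different genes can be compared. In these bulk samples, more cells that express a gene and more RNA per cell cannot be told apart.

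For 4 of the 8 genes, ALAS1, UROS, UROD and CPOX, both GFP-positive values exceeded both GFP-negative values, and for ALAD alone both were smaller. Such separation was common, at 22.8% of all genes tested in the higher direction and 21.5% in the lower (44.3% together). The median log2 fold change over the 8 genes was 0.26, beside 0.02 over all genes tested, and 6 of the 8 were above 0.

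**Figure D1:**
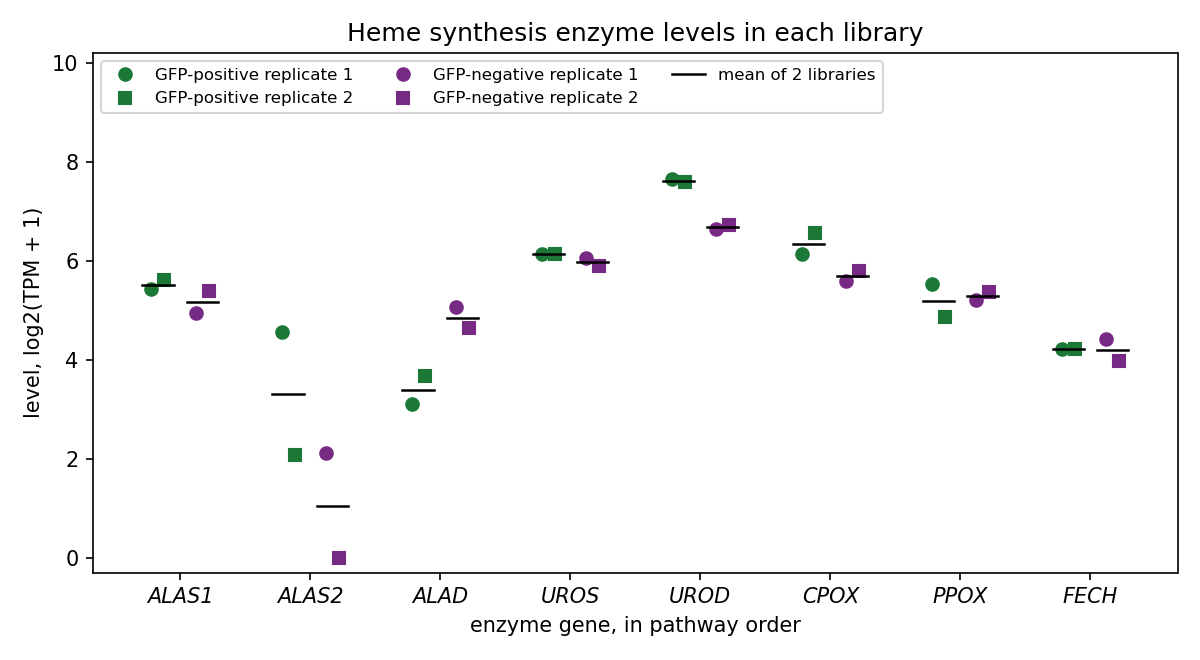
Level of each heme synthesis enzyme gene on a log2(TPM + 1) scale, in pathway order, with a point for each of the 4 libraries and a black line at the mean of the 2 libraries of a group. UROD is the highest in every library, ALAD is lower in both GFP-positive libraries, and the ALAS2 points overlap between groups, with 1 GFP-negative library at 0.

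The pathway starts with ALAS1 (ENSG00000023330; GENCODE v29 on GRCh38, chromosome 3, 52198086 to 52214327, plus strand). Its level was 42.32 TPM in replicate 1 and 47.63 TPM in replicate 2 of GFP-positive cells, and 30.03 TPM in replicate 1 and 40.98 TPM in replicate 2 of GFP-negative cells. In what follows, paired values are in the order of replicates 1 and 2. The groups did not overlap, but the higher GFP-negative library came within a small margin of the lower GFP-positive one. The log2 fold change was 0.35 ± 0.24 (SE; limma adjusted p = 0.601), with a 95% confidence interval from -0.25 to 0.94. Dropping GFP-negative replicate 1 or 2 made it 0.13 or 0.565.

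ALAS2 (ENSG00000158578; chromosome X, 55009055 to 55031064, minus strand) had 22.5 and 3.21 TPM in GFP-positive replicates 1 and 2. In the GFP-negative libraries it had 3.31 TPM in replicate 1 and was listed at 0 in replicate 2. A single library, GFP-positive replicate 1, was thus high, and the other GFP-positive library lay just below GFP-negative replicate 1. Its fitted difference, 2.26 ± 1.03 on the log2 scale (SE; limma adjusted p = 0.405), had the widest interval of the 8, from -0.26 to 4.78. Leaving out a library moved it widely, to 1.02 or 3.50 when GFP-positive replicate 1 or 2 was dropped and to 3.31 or 1.21 when GFP-negative replicate 1 or 2 was dropped, and it was 3.89 with a pseudocount of 0.1. The depth behind these levels is unknown, since TPM does not keep it. For genes with a single annotated transcript, however, TPM multiplied by length took stepped values, with 65.9% to 68.8% of low values no further than 0.15 from a whole step, where an even spread would give 30%, the step being fitted to the same values. If a step is a read and the ALAS2 transcript is 2 kb long, the levels stand for 70.9 and 6.71 reads in the GFP-positive libraries and 11.6 and 0 in the GFP-negative libraries.

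Of the summed ALAS1 and ALAS2 TPM, ALAS2 made up 34.7% and 6.31% in GFP-positive cells and 9.93% and 0% in GFP-negative cells. ALAS1 was therefore the more abundant transcript of the pair in every library. The mean share was 15.5 percentage points higher in GFP-positive cells, and an exact two-sided permutation test over the 4 libraries gave p = 0.667, where the smallest p this design allows is 0.333. Dropping GFP-positive replicate 1 or 2 made the difference 1.35 or 29.8 points, and dropping GFP-negative replicate 1 or 2 made it 20.5 or 10.6 points.

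Of a list of 18 erythroid markers, 12 passed the filter. Of these 12, 11 had both GFP-positive libraries above both GFP-negative ones, against 22.8% of all genes tested, and ALAS2 did not. HBG1 (5.45 and 5.03 TPM against 0.90 TPM and 0) passed the filter only through the GFP-positive libraries, so its separation was fixed by the filter. The count leaves out the markers that failed the filter. Over all 18 erythroid markers, the summed level was 691 and 469 TPM in GFP-positive cells and 133 and 120 TPM in GFP-negative cells. Of the 12 markers tested, 12 were above 0 and 2 passed, HBG2 and KEL, while HBB, the adult beta-globin, and AHSP, the alpha-globin chaperone, were listed at 0 in all 4 libraries. GATA1, the erythroid regulator of ALAS2, had 17.57 and 8.40 TPM in the GFP-positive libraries, with 3.08 TPM and 0 in the GFP-negative ones (limma adjusted p = 0.212). KLF1, another erythroid factor, had 30.93 and 22.43 TPM against 5.05 and 3.66 TPM (limma adjusted p = 0.069). HBE1, the embryonic beta-like globin, had 112.76 and 36.06 TPM against 7.87 and 2.72 TPM (limma adjusted p = 0.0959). As with ALAS2, replicate 1 was the higher library of each fraction for GATA1, KLF1 and HBE1, and the part of these markers in the enzyme differences was not tested.

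The next enzyme in the pathway had a fold change of the opposite sign. ALAD (ENSG00000148218; chromosome 9, 113386317 to 113401333, minus strand) had 7.56 and 11.68 TPM in GFP-positive cells and 32.49 and 23.93 TPM in GFP-negative cells. Both GFP-positive libraries were well below both GFP-negative libraries, and the ratio between replicates, 1.54 in GFP-positive and 1.36 in GFP-negative cells, was smaller than the 2.93-fold ratio between groups. On the log2 scale the difference was -1.47 ± 0.35 (SE), with an interval from -2.34 to -0.61 (limma adjusted p = 0.159, unadjusted p = 0.0058). It was -1.51 under upper quartile scaling and -1.49 under median scaling, and with each library left out in turn it lay between -1.75 and -1.19.

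UROS (ENSG00000188690; chromosome 10, 125784980 to 125823285, minus strand) makes the asymmetric ring from which heme is built. Its level was 69.85 and 69.08 TPM in the GFP-positive libraries, close to the 65.62 and 58.16 TPM of the GFP-negative libraries. The libraries did not overlap, yet the difference on the log2 scale was only 0.17 ± 0.18 (SE; limma adjusted p = 0.757), with an interval from -0.27 to 0.61, and it was 0.25 and 0.08 when GFP-negative replicates 1 and 2, in turn, were left out.

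UROD (ENSG00000126088; chromosome 1, 45012147 to 45015575, plus strand), the last cytosolic enzyme, had the smallest unadjusted p of the 8. It stood at 200.63 and 190.99 TPM in GFP-positive cells against 98.78 and 104.15 TPM in GFP-negative cells. Replicates differed by ratios of only 1.05 in each group, against 1.93 between group means. The difference of 0.94 ± 0.14 on the log2 scale (SE), with an interval from 0.59 to 1.30, did not pass over all genes (limma adjusted p = 0.0645, unadjusted p = 0.000597). It passed narrowly when only the 11823 genes with a mean above 5 TPM were tested (limma adjusted p = 0.0494). Without any 1 library the log2 fold change was 0.90 to 0.98, and limma's adjusted p was 0.126 to 0.247.

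CPOX (ENSG00000080819; chromosome 3, 98579446 to 98593723, minus strand) returns the pathway to the mitochondrion. Its level was 69.45 and 93.36 TPM in GFP-positive cells and 47.39 and 54.16 TPM in GFP-negative cells. All GFP-positive values were above all GFP-negative values, though the GFP-positive pair was itself spread by a ratio of 1.34. This gave a log2 fold change of 0.66 ± 0.22 (SE), with an interval from 0.12 to 1.19 (limma adjusted p = 0.267, unadjusted p = 0.0235).

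The last enzymes, PPOX and FECH, gave no direction. PPOX (ENSG00000143224; chromosome 1, 161166410 to 161178013, plus strand) had 45.30 and 27.94 TPM in GFP-positive cells, on either side of the 36.14 and 40.17 TPM in GFP-negative cells. Its log2 fold change was -0.10 ± 0.29 (SE; limma adjusted p = 0.931), with an interval from -0.80 to 0.61, and dropping GFP-positive replicate 1 or 2 made it -0.43 or 0.24. In GENCODE v29, 24.3% of PPOX exon bases are also exon of B4GALT3 on the opposite strand, a gene at 45.04 to 62.53 TPM, and the sources used here do not say whether reads were counted by strand, so the PPOX level is uncertain. FECH (ENSG00000066926; chromosome 18, 57548283 to 57586772, minus strand), which completes heme, had 17.66 and 17.71 TPM in GFP-positive cells. GFP-negative cells had 20.39 and 14.74 TPM, so that their replicates enclosed the GFP-positive values. The log2 fold change was 0.03 ± 0.31 (SE; limma adjusted p = 0.988), with an interval from -0.73 to 0.78, and it was slightly negative under upper quartile scaling (-0.01). Dropping GFP-negative replicate 1 or 2 made it 0.25 or -0.195. The interval leaves room for a change in either direction of the size seen in CPOX.

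**Figure D2:**
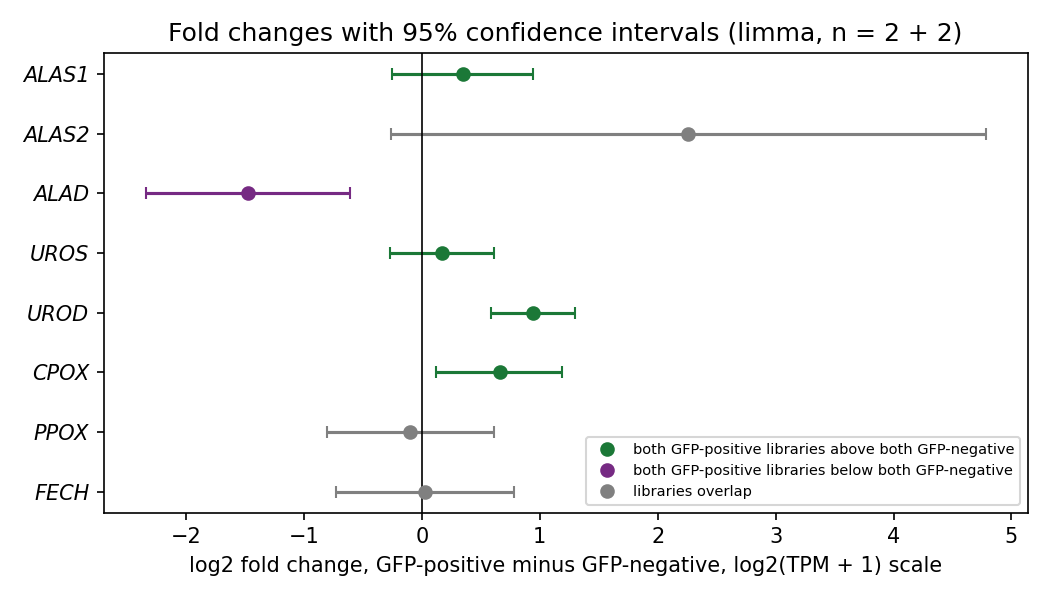
Log2 fold change of each enzyme gene, GFP-positive minus GFP-negative, on the log2(TPM + 1) scale, with points at the limma estimate and bars for the 95% confidence interval, not adjusted for the number of genes. The intervals of ALAD, UROD and CPOX leave out 0, and that of ALAS2 runs from -0.26 to 4.78.

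UROD led in both groups, and ALAD stood lower among the enzymes in GFP-positive cells. By mean TPM, the order in GFP-negative cells was UROD (101), UROS (61.9), CPOX (50.8), PPOX (38.2), ALAS1 (35.5), ALAD (28.2), FECH (17.6) and ALAS2 (1.66). Neighbouring enzymes whose GFP-negative libraries overlapped were PPOX with ALAS1, and ALAS1 with ALAD. In GFP-positive cells the order was UROD (196), CPOX (81.4), UROS (69.5), ALAS1 (45.0), PPOX (36.6), FECH (17.7), ALAS2 (12.9) and ALAD (9.62). There the libraries of CPOX and UROS, of ALAS1 and PPOX, of FECH and ALAS2, and of ALAS2 and ALAD overlapped. Among all genes tested, the mean level of UROD over the 4 libraries was above 91.7% of genes, those of CPOX and UROS above 79.4% and 79.3%, and that of ALAS2 above 29.7%.

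Ratios within a library do not depend on how it was scaled, and the pairs that follow were chosen after the values were seen, so they are descriptions. UROD exceeded ALAD by 26.5 and 16.4 times in GFP-positive cells, but by 3.04 and 4.35 times in GFP-negative cells. ALAS1 was 5.60 and 4.08 times the ALAD level in GFP-positive cells, against 0.924 and 1.71 times in GFP-negative cells. Neither ratio overlapped between the groups, which follows from the separation of UROD, ALAS1 and ALAD given above and adds no result. Relative to FECH, UROD stood at 11.4 and 10.8 times in GFP-positive cells against 4.85 and 7.07 times in GFP-negative cells.

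The 8 genes together held 475 and 462 TPM in GFP-positive cells and 334 and 336 TPM in GFP-negative cells. UROD made up 42.2% and 41.4% of this sum in the GFP-positive libraries and 29.6% and 31.0% in the GFP-negative ones. Without UROD, the sum was 275 and 271 TPM in GFP-positive cells and 235 and 232 TPM in GFP-negative cells. The ALAD share was 1.59% and 2.53% in GFP-positive cells and 9.72% and 7.12% in GFP-negative cells. The cytosolic enzymes ALAD, UROS and UROD summed to 275 ± 4.38 TPM (SD, n = 2) in GFP-positive and 192 ± 7.57 TPM in GFP-negative cells. The mitochondrial enzymes ALAS1, ALAS2, CPOX, PPOX and FECH summed to 194 ± 5.23 TPM and 144 ± 9.05 TPM. Both sums were thus higher in GFP-positive cells, by ratios of 1.43 and 1.35, and the ratio of cytosolic to mitochondrial sums overlapped between groups, at 1.41 and 1.43 against 1.43 and 1.24. The higher cytosolic sum rested on UROD, with a mean of 195.8 TPM in GFP-positive against 101.5 TPM in GFP-negative cells. UROS differed little, at 69.47 against 61.89 TPM, and ALAD was lower, at 9.62 against 28.21 TPM.

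**Figure D3:**
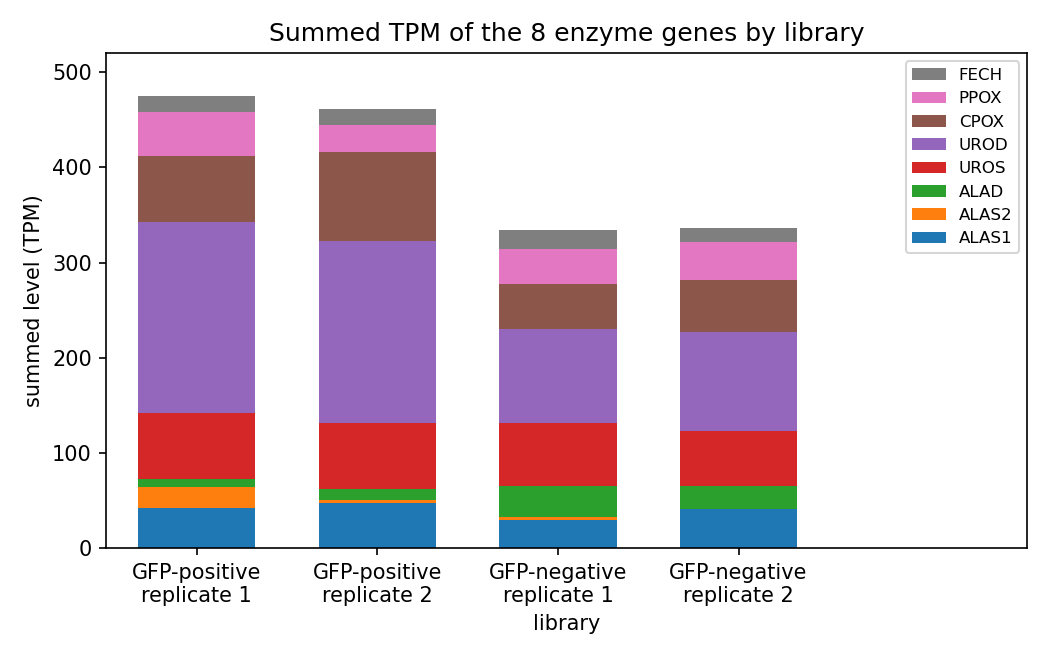
Stacked TPM of the 8 enzyme genes in each of the 4 libraries, with bars starting at 0. The GFP-positive bars reach 475 and 462 TPM and the GFP-negative bars 334 and 336 TPM, and the UROD segment is the largest in every library.

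Around the enzymes, 37 genes of precursor supply, mitochondrial transport, regulation, and heme use and breakdown were listed, of which 36 passed the filter. Limma called 0 of them higher and 0 lower over all genes, and at an unadjusted p under 0.05 it gave 3 higher (SLC25A37, ACO1 and BLVRB) and 2 lower (HMOX2 and FLVCR2). The median log2 fold change was -0.02, with 17 genes above 0 and 19 below, and the median's sign depended on the libraries, at -0.14 and 0.11 when GFP-positive replicates 1 and 2, in turn, were left out. Both GFP-positive libraries were above both GFP-negative ones for 9 of the 36 and below them for 7, against 22.8% and 21.5% of all genes tested. These shares, and that of the 5 genes at an unadjusted p under 0.05 against 14.1% of all genes, were near the background. Among the 7 below, PPARGC1A (0.40 TPM and 0 against 1.27 and 2.08 TPM) passed the filter only through the GFP-negative libraries. Its separation was thus fixed by the filter.

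SLC25A37, mitoferrin-1, the carrier that brings iron into mitochondria of red cell precursors, was the nearest to the threshold. It had 200.89 and 208.77 TPM in GFP-positive cells and 100.46 and 106.78 TPM in GFP-negative cells, levels much like those of UROD in the same libraries. The log2 fold change was 0.98 ± 0.14 (SE; limma adjusted p = 0.0601, and 0.0462 when only genes with a mean above 5 TPM were tested). NFS1, the cysteine desulfurase of iron-sulfur cluster assembly, was chosen after its values were seen, as the lowest of its group, with 18.43 and 10.92 TPM against 20.49 and 20.17 TPM (limma adjusted p = 0.609). Of the 10 transport and iron-sulfur genes, 4 were above 0 and 6 below.

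Precursor supply showed small differences in opposite directions. SUCLG1, a subunit of succinyl-CoA ligase, had 74.59 and 68.83 TPM in GFP-positive cells and 60.25 and 52.64 TPM in GFP-negative cells (limma adjusted p = 0.478). SHMT2, which makes glycine in mitochondria, had 331.91 and 395.24 TPM against 412.00 and 508.70 TPM (limma adjusted p = 0.423). SLC25A38, the mitochondrial glycine carrier needed for ALAS2 to work in red cell precursors, had a log2 fold change of 0.02.

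Among 11 regulators, 4 were above 0 and 7 below. ACO1, the iron regulatory protein that binds ALAS2 messenger RNA when iron is scarce, had 25.31 and 23.37 TPM in GFP-positive cells and 13.00 and 15.88 TPM in GFP-negative cells (log2 fold change 0.72 ± 0.29, SE; limma adjusted p = 0.342). IREB2, the other iron regulatory protein, had a log2 fold change of -0.18. PPARGC1A, a coactivator that induces ALAS1 in liver, was near 0, at 0.40 TPM and 0 in GFP-positive and 1.27 and 2.08 TPM in GFP-negative cells (limma adjusted p = 0.422). CLPX, a mitochondrial unfoldase that acts on ALAS, had a log2 fold change of 0.14.

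Heme use, breakdown and export genes also went both ways, with 6 of 10 tested above 0. BLVRB, biliverdin reductase B, which is abundant in red cells, had 25.57 and 37.23 TPM in GFP-positive cells. GFP-negative cells had 8.10 and 11.29 TPM, well below, which is 1.59 ± 0.34 on the log2 scale (SE; limma adjusted p = 0.126). FLVCR2, a transporter of the FLVCR family, had 1.49 and 0.26 TPM against 3.53 and 5.17 TPM (limma adjusted p = 0.305). HMOX2, the constitutive heme oxygenase, had 46.02 and 53.79 TPM against 77.04 and 70.70 TPM (limma adjusted p = 0.279). HMOX1, the inducible heme oxygenase that opens the heme ring, had overlapping libraries, with 13.64 and 4.22 TPM against 17.58 and 10.24 TPM. ABCG2, an exporter of porphyrins, had 0.13 and 0.17 TPM in GFP-negative cells, was listed at 0 in each GFP-positive library and was not tested.

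**Figure D4:**
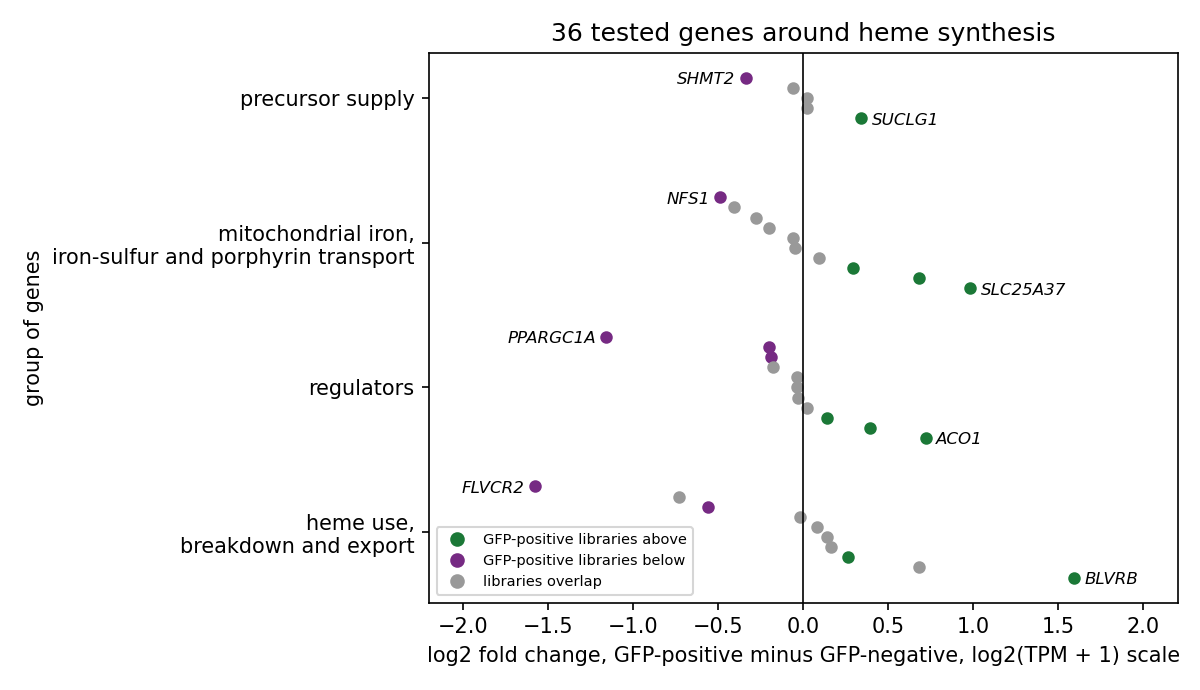
Log2 fold change, GFP-positive minus GFP-negative, on the log2(TPM + 1) scale, of the 36 tested genes around heme synthesis, a point for each gene, in 4 groups. Labels mark the lowest and the highest gene of each group, from FLVCR2 at -1.58 to BLVRB at 1.59, and none of the 36 passed the test over all genes.

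The genes whose pattern over the 4 libraries was most like that of ALAS1 and of ALAS2 were ranked by Euclidean distance between mean-centred log2(TPM + 1) values. For ALAS1 these were ZUFSP (distance 0.0319), LPA (0.04), C15orf40 (0.062), GALNT1 (0.064) and TMEM128 (0.0655). For ALAS2 they were MT1E (0.645), SCARNA9 (0.879), RP11-627G18.3 (1.04), MIR4517 (1.09) and GATA1 (1.15). MT1E, a metallothionein, had 105.94 and 28.27 TPM in GFP-positive and 35.36 and 5.57 TPM in GFP-negative cells, the same order of the 4 libraries as ALAS2. With 4 libraries many genes share a pattern, so nearness is a description.

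The libraries as a whole frame these values. GATA2 itself, which carries the reporter used to sort, had 302.27 and 384.62 TPM in GFP-positive and 80.16 and 87.28 TPM in GFP-negative cells. Summed endothelial markers (9 genes) ranged from 2455 to 2659 TPM in GFP-positive and from 4585 to 5031 TPM in GFP-negative cells, with all 9 below 0 and 1 of them, CD34, called lower. Markers of dividing cells (4 genes) summed to 452 to 529 TPM against 333 to 414 TPM. Megakaryocytic markers (7 genes) summed to 149 to 180 TPM against 83.1 to 95.3 TPM, and mesenchymal markers (6 genes) to 965 to 1055 TPM against 580 to 660 TPM. Hepatic markers (4 genes) were at 13.6 to 16.0 TPM against 43.8 to 71.0 TPM, with APOA1 as their most abundant gene, and myeloid markers (7 genes) at 15.0 to 23.7 TPM against 13.7 to 15.3 TPM. Pluripotency markers (4 genes) gave no common direction: their sum, 462 to 569 TPM against 386 to 395 TPM, was mostly LIN28A, at 477.43 and 386.25 TPM against 303.69 and 287.34 TPM. POU5F1, the core pluripotency factor, had 0.93 and 0.03 TPM against 9.68 and 5.88 TPM, and of the 3 tested 1 was above 0 and 2 were below, with a median log2 fold change of -0.08. A sum follows its most abundant genes, and all of these sums but the myeloid differed between the groups without overlap. Their part in the enzyme differences was not tested.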

How the data were processed

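RNA of 4 libraries, 2 per sorted fraction, was harvested with Trizol and made into libraries with an Illumina TruSeq kit, per the labels' protocols. The authors deposited 1 table of TPM values per library, made from reads with Bowtie and RSEM per the submitters' processing notes. The file headers name the library and no unit, and the values were taken as TPM because each column sums to between 996323.64 and 997292.9 and low values are no multiples of 1 step. Those notes give no versions and name the builds hg19 and mm10 without a role; the sources used here do not state the annotation or strand use. Groups and replicate numbers came from the titles.

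Limma 3.58.1 (R 4.3.3) with a variance trend was fitted to log2(TPM + 1) of the 15425 genes that reached 1 TPM in 2 or more libraries, with two-sided p-values and Benjamini-Hochberg adjustment over all of these genes. This scale understates changes of low genes. The script was tested on simulated data, with noise drawn from its own fitted variances and changes placed only in genes of higher level. Such data cannot show whether those variances are right, and recovery of changes in low genes such as ALAS2 was not tested. Gene coordinates and exon overlaps are from GENCODE v29 on GRCh38, and were used with no coordinates of the authors' files. Members and lists were chosen with earlier results of these data known. Named around the enzymes were the genes past the threshold and, in each of 4 groups, the 2 with the largest absolute fold change; other genes were added after their values were seen, and not every gene this rule gives is reported here. Alternatives covered scaling, pseudocount, filter, variance trend, replicate block and each library left out.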

Additional observations from a re-analysis of the deposited data

How the results depend on the processing

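Of 96 fold changes of the 8 enzymes under 12 alternatives, 93 kept their direction. The 3 that turned were near 0: PPOX was 0.24 without GFP-positive replicate 2 (range -0.43 to 0.24 with a library left out), and FECH was -0.014 with upper quartile scaling and -0.20 without GFP-negative replicate 2 (range -0.20 to 0.25). No enzyme was called lower in any alternative, and UROD (log2 fold change 0.94) was the 1 called higher with a mean above 5 TPM (limma adjusted p = 0.0494; fewer genes tested) and with the replicate block (limma adjusted p = 0.0114). The genes around heme synthesis had 1 called higher with a mean above 5 TPM and 2 with the replicate block, and their median ran from -0.14 to 0.11 with a library left out. Over all genes, limma called 0 higher and 0 lower under a pseudocount of 0.1, without a filter and without a variance trend, where 2101, 2230 and 2072 genes had an unadjusted p under 0.05. It called 50 higher and 114 lower with a mean above 5 TPM, and 228 higher and 368 lower with the replicate block; with a library left out the counts ran from 10 to 36 higher and from 1 to 48 lower. The cause of these differences in count was not tested. The titles' replicate numbers are not said to mark a shared culture or day, and deviations of the replicate 1 libraries from their group means correlated at only 0.072 across genes, so the block result rests on a shared number alone. Read depth is unknown, so the counting error behind the low ALAS2 levels could not be given.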
